A study of Homo sapiens with 6 samples.

Results

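The genes described here lie at the telomeric end of the short arm of human chromosome 19. They are the protein-coding genes that start below position 3000000 on hg38 in the GENCODE 29 annotation, with RPS15, CNN2, ARHGAP45, EFNA2, NDUFS7 and UQCR11 left out. The rule finds 95 genes among the 22091 gene IDs of the count files, and 74 of them passed a filter on low counts and could be compared. RNA was sequenced in 3 human hepatocellular carcinoma cell lines grown in DMEM with 10% fetal bovine serum. MHCC97L and MHCC97H come from the same parental tumour line and were picked for low and for high spread in mice, while HCCLM3 was established from lung metastases that MHCC97H had formed. Each line gave 1 library after 4 h with TGF-β1 at 2.5 ng/mL and 1 control library, so there are 6 libraries in all. The question asked of these neighbours was whether STK11, MIDN, ATP5F1D and the genes around them differ together between MHCC97L and the other lines, by position, as a change in DNA copy number would give. The genes were selected on measured values of that same comparison, so its values are given as a description with no test, and DNA copy number was not measured in these files.

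When a stretch of a chromosome is lost or gained in a tumour line, the transcripts of its genes often shift together while genes beyond its ends keep their level. The end of chromosome 19p is dense in genes and rich in G and C bases. Its best known member is STK11, also called LKB1, a tumour suppressor kinase that switches on AMPK and related kinases, and which is itself activated by the pseudokinases STRADA and STRADB and the scaffold CAB39. ATP5F1D is a subunit of the catalytic part of mitochondrial ATP synthase, and midnolin, the product of MIDN, carries nuclear proteins to the proteasome.

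Total expected counts per library ran from 18485041 to 23242862, and the 95 genes held 0.543% to 0.77% of them. Levels are in CPM (counts scaled to library size, with TMM factors). The limit that a count of 0 sets, taken as 3 counts, was 0.129 to 0.162 CPM in a library and covers counting error only. Hepatocellular markers summed to 5953 to 9366 CPM, with highest values of 6574.5 for KRT8, 2663.5 for KRT18, 207.7 for HNF4A and 114.2 for SERPINA1. Albumin reached at most 22.9 CPM, APOB 14.3, AFP 5.3 and APOA1 3.0 CPM, and TTR stayed under 1 CPM. Leukocyte markers summed to 12.0 to 16.5 CPM, endothelial markers to 11.1 to 41.1 CPM, and stellate cell and fibroblast markers to 11.1 to 39.1 CPM. In RNA of whole cultures, fewer cells that express a gene and less RNA per cell cannot be told apart.

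In MHCC97L, 6 genes that follow each other along the chromosome were lower than in MHCC97H and HCCLM3, and the genes on both sides of them were not. From the telomere side these are SBNO2, STK11, CBARP, ATP5F1D, MIDN and CIRBP, which together span 167.2 kb from position 1107636 to 1274880. The neighbours that bound them are GPX4 on the telomere side and FAM174C on the centromere side, and the stretch between the end of GPX4 and the start of FAM174C is 168.6 kb long. This set of 6 was recognised after the values were seen.

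Promoters of 3 of the lower genes and of the 2 flanking genes are shown so that the starts of genes on either side of the boundary can be read beside each other. Each runs from 250 bases before to 50 bases after a transcription start listed in RefSeq on GRCh38.p14, on the plus strand of chromosome 19. The listed start closest to the GENCODE gene start was used. For STK11 and CIRBP the window lies inside the GENCODE gene, which starts at 1177558 and 1259384. STK11 lies at chr19:1205528-1205827, MIDN at chr19:1248333-1248632 and CIRBP at chr19:1269082-1269381. The flanking GPX4 lies at chr19:1103744-1104043 and FAM174C at chr19:1275280-1275579. Capitals mark the GC box, GGGCGG or its reverse complement CCGCCC, the core bound by SP family transcription factors, and overlapping matches are each counted.
STK11: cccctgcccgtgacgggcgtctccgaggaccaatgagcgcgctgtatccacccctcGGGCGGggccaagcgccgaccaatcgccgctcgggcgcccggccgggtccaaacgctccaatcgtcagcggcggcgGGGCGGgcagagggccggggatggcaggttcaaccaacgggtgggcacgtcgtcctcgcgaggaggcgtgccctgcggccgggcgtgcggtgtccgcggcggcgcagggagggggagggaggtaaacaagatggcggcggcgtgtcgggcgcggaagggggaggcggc
MIDN: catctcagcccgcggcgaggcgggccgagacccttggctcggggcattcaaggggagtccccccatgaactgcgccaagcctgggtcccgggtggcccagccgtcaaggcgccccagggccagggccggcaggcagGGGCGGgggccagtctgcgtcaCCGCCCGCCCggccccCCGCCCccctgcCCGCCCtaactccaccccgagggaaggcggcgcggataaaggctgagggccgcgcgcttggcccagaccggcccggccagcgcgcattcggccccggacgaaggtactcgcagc
CIRBP: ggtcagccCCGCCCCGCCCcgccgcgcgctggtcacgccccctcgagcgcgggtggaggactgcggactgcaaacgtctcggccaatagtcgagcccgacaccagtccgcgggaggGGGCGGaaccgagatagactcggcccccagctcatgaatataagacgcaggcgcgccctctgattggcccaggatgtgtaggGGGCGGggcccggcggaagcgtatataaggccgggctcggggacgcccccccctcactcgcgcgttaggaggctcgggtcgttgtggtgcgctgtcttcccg
GPX4: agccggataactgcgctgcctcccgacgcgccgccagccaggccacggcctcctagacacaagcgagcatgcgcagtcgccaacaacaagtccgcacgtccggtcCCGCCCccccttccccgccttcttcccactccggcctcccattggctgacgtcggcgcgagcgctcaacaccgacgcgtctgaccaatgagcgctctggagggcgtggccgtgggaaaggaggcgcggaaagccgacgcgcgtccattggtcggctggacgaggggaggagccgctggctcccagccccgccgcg
FAM174C: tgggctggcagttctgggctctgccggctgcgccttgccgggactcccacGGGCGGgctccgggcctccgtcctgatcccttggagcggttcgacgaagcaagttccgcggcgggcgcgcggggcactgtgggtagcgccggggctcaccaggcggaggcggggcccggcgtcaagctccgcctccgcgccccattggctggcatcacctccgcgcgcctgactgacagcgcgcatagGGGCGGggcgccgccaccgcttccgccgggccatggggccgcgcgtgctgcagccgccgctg
The promoter of STK11 held 2 GC boxes, that of MIDN 5 and that of CIRBP 4, beside 1 in GPX4 and 2 in FAM174C. Of the 6 neighbours 5 had a listed promoter and all 5 held the motif, and ATP5F1D had no entry. The motif stood in 58 of the 63 tested members with a listed promoter (92.1%) and in 45.0% of the 35116 listed promoters of the genome. Genes inside and outside the block thus shared the motif in these windows, and a match is a description, not a binding site. The windows of the 63 members had a median GC content of 72.0%, against 58.7% over all listed promoters, where a gene can have several. The shares of 92.1% and 45.0% are therefore not set at equal base composition.

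STK11 (ENSG00000118046.14, chr19:1177558-1228435, plus strand) had 27.4 CPM after TGF-β1 and 25.3 CPM in the control of MHCC97L, against 87.2 and 66.7 CPM in MHCC97H and 66.4 and 66.4 CPM in HCCLM3. MIDN (ENSG00000167470.12, chr19:1248553-1259140, plus strand) had 60.8 and 53.0 CPM in MHCC97L in the same order of conditions, against 190.6 and 134.2 CPM in MHCC97H and 156.1 and 141.5 CPM in HCCLM3. ATP5F1D (ENSG00000099624.7, chr19:1241746-1244826, plus strand) had 64.02 and 47.44 CPM in MHCC97L, against 164.3 and 116.6 CPM in MHCC97H and 112.1 and 104.4 CPM in HCCLM3. For all 3 genes both MHCC97L libraries lay below the 4 other libraries, and the groups did not overlap. CIRBP (ENSG00000099622.13, chr19:1259384-1274880, plus strand), which encodes a cold-inducible RNA-binding protein, had 43.3 and 45.4 CPM in MHCC97L, against 82.4 and 80.5 CPM in MHCC97H and 68.5 and 70.0 CPM in HCCLM3. SBNO2 (ENSG00000064932.15, chr19:1107636-1174283, minus strand), a transcriptional coregulator, had 12.7 and 16.7 CPM in MHCC97L, against 31.4 and 29.8 CPM in MHCC97H and 26.3 and 39.5 CPM in HCCLM3. CBARP (ENSG00000099625.12, chr19:1228287-1238027, minus strand), which encodes a regulator of voltage-gated calcium channels, had 1.17 and 1.40 CPM in MHCC97L, against 3.93 and 4.47 CPM in MHCC97H and 3.42 and 5.26 CPM in HCCLM3. These 3 genes likewise had both MHCC97L libraries lowest of the 6, and CBARP rests on the fewest counts, 26.2 and 32.1 in MHCC97L against 70.5 to 98.9 elsewhere.

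**Figure D1:**
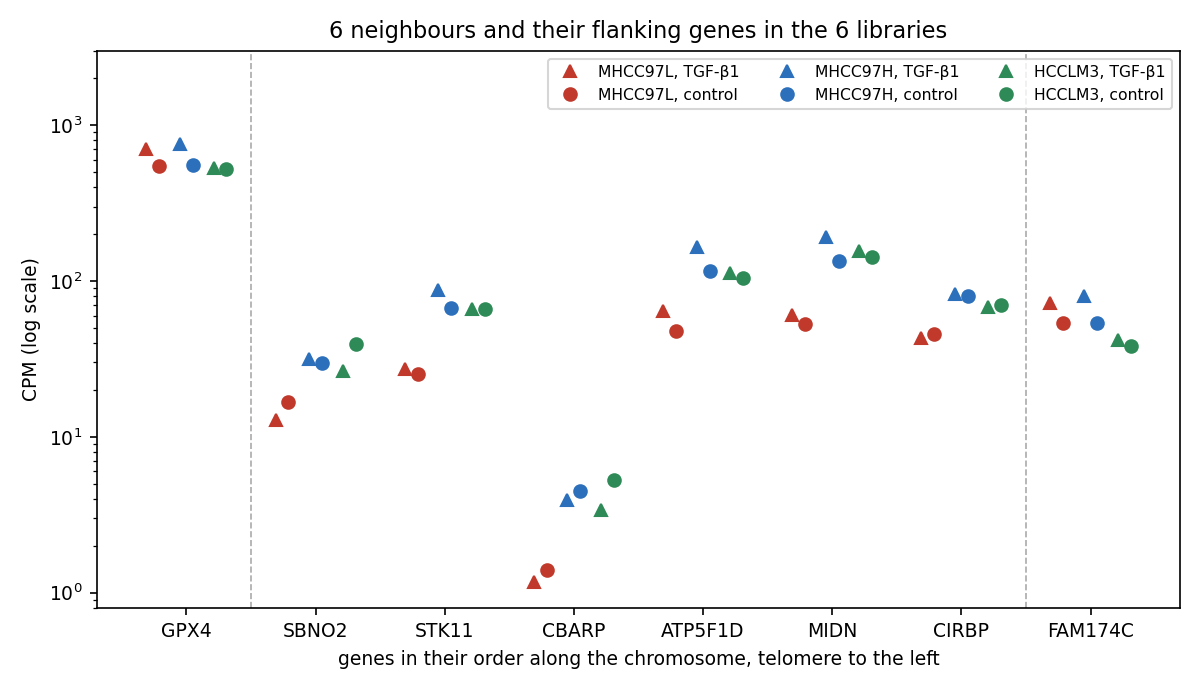
CPM on a log axis of GPX4, the 6 neighbours and FAM174C in each of the 6 libraries, with genes in chromosomal order. Triangles are TGF-β1 libraries and circles control libraries. Between the dashed lines both MHCC97L points (red) lie under all others of the same gene, for example 27.4 and 25.3 CPM of STK11 against 66.4 to 87.2 CPM, while for GPX4 and FAM174C they lie among them.

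On the log2 scale, fitted with cell line and treatment as terms, MHCC97L minus the mean of the other lines was -1.44 (SE 0.098) for STK11, -1.44 (SE 0.093) for MIDN and -1.15 (SE 0.095) for ATP5F1D. It was -1.74 (SE 0.221) for CBARP, -1.12 (SE 0.14) for SBNO2 and -0.76 (SE 0.074) for CIRBP. The 6 genes were thus 1.69-fold to 3.34-fold lower in MHCC97L, with a median difference of -1.29, or 2.45-fold. The sizes were not equal: CIRBP at the centromere end kept 59.1% of the mean level of the other lines, and CBARP 29.9%, STK11 36.9% and MIDN 36.7%. Within the TGF-β1 libraries alone the 6 differences ran from -1.60 to -0.80 with a median of -1.32, and within the control libraries alone from -1.74 to -0.72 with a median of -1.30. Set against MHCC97H alone the median was -1.42 and against HCCLM3 alone -1.25, 2 comparisons that share the MHCC97L libraries. Each of the 6 genes was at least 1.54-fold lower in each of the 4 pairs of libraries of one condition.

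At both ends the difference stopped within one gene. GPX4, the peroxidase that reduces lipid hydroperoxides in membranes, had 702.5 and 548.6 CPM in MHCC97L after TGF-β1 and in control, against 751.2 and 557.4 CPM in MHCC97H and 527.2 and 525.6 CPM in HCCLM3. FAM174C had 72.3 and 53.9 CPM in MHCC97L, against 80.4 and 53.6 CPM in MHCC97H and 41.7 and 38.4 CPM in HCCLM3. The MHCC97L libraries lay within the range of the others for GPX4 and FAM174C alike, and the fitted differences were 0.09 (SE 0.093) and 0.28 (SE 0.095). Next on the telomere side, POLR2E, a subunit shared by the nuclear RNA polymerases, had a difference of 0.03 (SE 0.067). ABCA7, a lipid transporter gene further toward the telomere, had one of -0.48 (SE 0.11), with both MHCC97L libraries below the others. On the centromere side PWWP3A, GAMT and DAZAP1 follow, and GAMT, which makes creatine, was at 0.39 (SE 0.103).

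**Figure D2:**
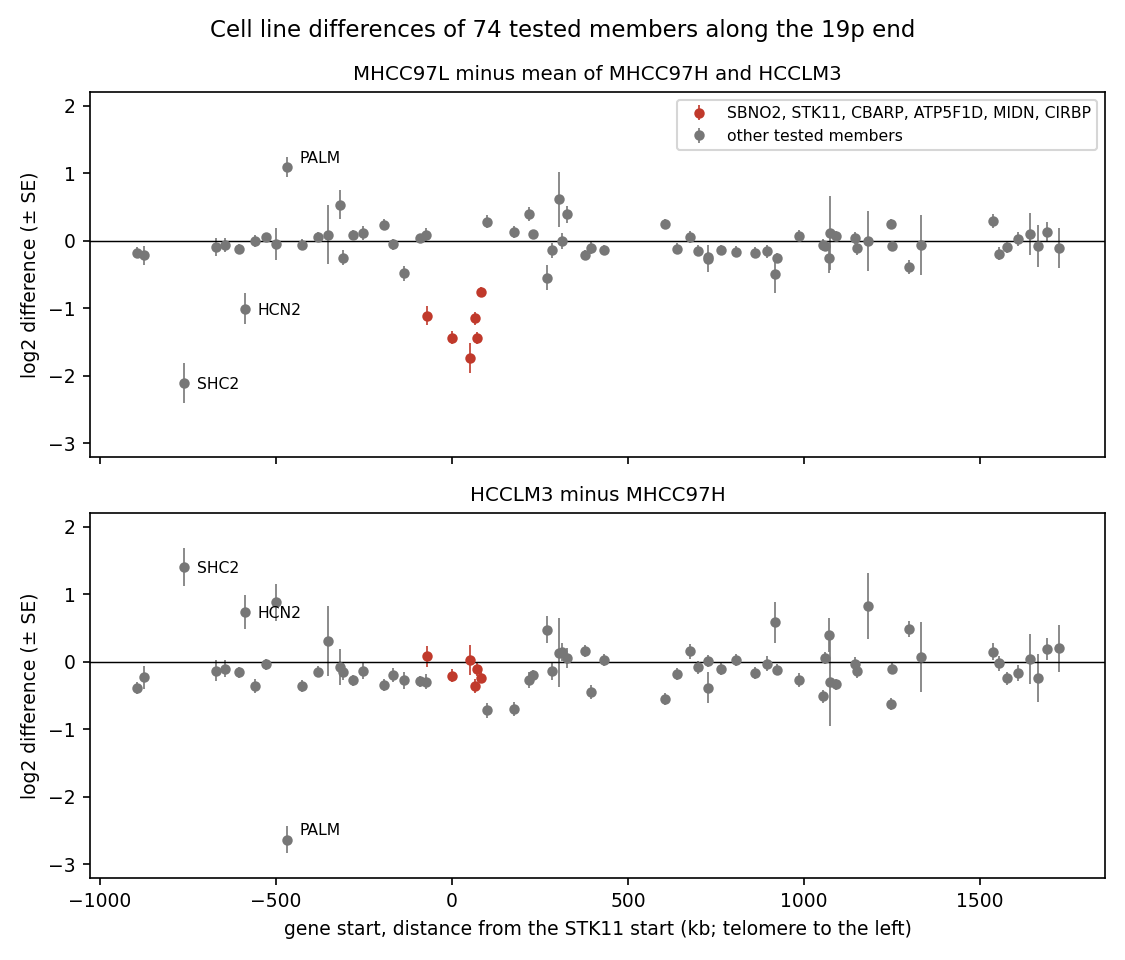
Fitted log2 differences (± SE) of the 74 tested members against the distance of their start from that of STK11 in kb. In the upper panel, MHCC97L minus the mean of the other lines, the 6 neighbours (red) form a dip from -0.76 to -1.74 between genes near 0. In the lower panel, HCCLM3 minus MHCC97H, the same 6 lie from -0.36 to 0.08.

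The reads behind these genes bear on how well the genes can be told apart. Expected counts were whole numbers in all libraries for ATP5F1D, MIDN and CIRBP but not for SBNO2, STK11 and CBARP, and the 3' end of STK11 overlaps CBARP on the opposite strand. Whether counting used strand was not given in the sources used here, so reads of STK11 and CBARP in the overlap may not be separable, nor those of CIRBP and its antisense partner CIRBP-AS1. ATP5F1D and MIDN have whole counts and no overlapping gene, and were 2.22-fold and 2.72-fold lower. ATP5F1D rested on 1440 and 1090 counts in MHCC97L against 1965 to 3823 counts elsewhere, and MIDN on 1368 and 1217 against 2663 to 4435.

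The arm end as a whole did not follow the 6 neighbours. The other 68 tested members had a median difference of -0.06 in the same comparison, 62 of them lay within 0.5 of 0, and their 10th and 90th percentiles were -0.26 and 0.26. Their SD was 0.377, against 0.535 over all tested protein-coding genes. In steps of 0.5 Mb from the telomere the medians were -0.22, 0.02, -0.10, -0.14, -0.08 and -0.07, and the third of these, which holds the 6 neighbours, was 0.06 without them. The first step holds 3 tested genes. Over all tested protein-coding genes below 3 Mb the median was -0.07. The other 15 windows of 3 Mb on chromosome 19 with at least 20 such genes ran from -0.23 to 0.06. Just inside the 3 Mb limit ZNF555, ZNF556 and ZNF57 had differences of -0.09, 0.13 and -0.11, and just outside it TLE5, GNA11 and NCLN had -0.11, -0.12 and 0.04.

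The members with the deepest counts sat close to 0. PTBP1, a repressor of alternative exons, had 430.5 and 436.8 CPM in MHCC97L after TGF-β1 and in control, against 442.7 and 435.4 CPM in MHCC97H and 400.1 and 393.8 CPM in HCCLM3. LMNB2, a nuclear lamin gene, had 249.2 and 257.4 CPM in MHCC97L, against 289.7 and 266.3 CPM in MHCC97H and 265.3 and 252.3 CPM in HCCLM3. Both differed little between lines, by 0.06 (SE 0.066) for PTBP1 and -0.08 (SE 0.07) for LMNB2, and neither passed for TGF-β1. Of the 10 members with the highest mean CPM, which also include GPX4, OAZ1, BSG, AP3D1, FSTL3, MISP, POLR2E and MBD3, the differences of MHCC97L from the mean of the other lines ran from -0.26 for AP3D1 to 0.09 for GPX4. Both MHCC97L libraries of AP3D1 lay below all others, and FSTL3 had the widest SE of the 10, 0.234.

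Of the 74 tested members, 8 were at least 1.5-fold lower in MHCC97L, beside 5.4% of all 14176 tested genes, and 2 were at least 1.5-fold higher, beside 6.38%. Both MHCC97L libraries lay below the other 4 for 13 members, beside 8.48% of all tested genes, and above them for 2, beside 9.02%. At the 0.05 threshold on the adjusted p (quasi-likelihood test of edgeR, Benjamini-Hochberg) 11 members were lower, beside 8.12%, and 2 higher, beside 8.47%. Nothing is read from these shares, because this comparison chose the genes.

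Outside the 6 neighbours, SHC2 and HCN2 were the members at least 1.5-fold lower, and they stand apart from the block in position. SHC2, an adaptor of receptor tyrosine kinases, had 0.622 and 0.566 CPM in MHCC97L after TGF-β1 and in control, against 2.15 and 1.10 CPM in MHCC97H and 4.94 and 3.51 CPM in HCCLM3. HCN2, a pacemaker channel gene, had 20.9 and 7.05 CPM in MHCC97L, against 29.9 and 12.6 CPM in MHCC97H and 39.4 and 26.9 CPM in HCCLM3. SHC2 was lowest in both MHCC97L libraries on 14 and 13 counts. The libraries of HCN2 overlapped between lines across conditions, while within each condition MHCC97L was lowest. The 5 members with the largest positive difference were PALM at 1.09, PCSK4 at 0.61, CFD at 0.53, and GAMT and ADAMTSL5 at 0.39 each. Of these, CFD, which encodes complement factor D, and ADAMTSL5 had both MHCC97L libraries highest. PALM, which encodes the membrane-linked protein paralemmin, was -0.23 against MHCC97H and 2.40 against HCCLM3, so its difference came from a low level in HCCLM3.

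Among tested protein-coding genes in chromosomal order across the genome (13269 genes), runs were counted in which consecutive genes had both libraries of one line below, or both above, all others and differed by at least 1.5-fold. The block from SBNO2 to CIRBP was the only run of 4 or more genes lower in MHCC97L, among 7 such runs of 3 or more. The block was picked after these MHCC97L values were seen, in the comparison that chose the members. Nothing is read from its length. There were 5 runs of 3 or more genes higher in MHCC97L, the longest with 5 genes on chromosome 2. MHCC97H had 1 run of 3 or more genes lower and 3 higher. HCCLM3 had 41 lower and 42 higher, the longest with 16 genes, so that 14 of the 15 runs of 6 or more genes belonged to HCCLM3.

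The partners of these proteins that are encoded elsewhere did not show a difference of the same size. The 4 other tested subunits of the F1 part of ATP synthase, ATP5F1A, ATP5F1B, ATP5F1C and ATP5F1E, had differences of 0.14 to 0.29 between MHCC97L and the mean of the other lines, beside -1.15 for ATP5F1D. STRADA, STRADB, CAB39 and CAB39L, which form the active complex with STK11, had -0.49 to -0.05, beside -1.44 for STK11. The 12 tested kinases and AMPK subunits that act downstream of STK11 had a median of -0.05 and reached 0.53 for NUAK1. The lowest value, -0.45 for SIK1, is of a gene at 0 CPM in 1 library of each line and at most 1.12 CPM in the others. The 11 tested subunits of RNA polymerase II beside POLR2E had a median of 0.06. Among members near 0, SF3A2, a splicing factor subunit, was at -0.08 beside 0.07 and 0.11 for SF3A1 and SF3A3, and MBD3 of the NuRD complex was at -0.11 beside a median of -0.02 for 9 partners.

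**Figure D3:**
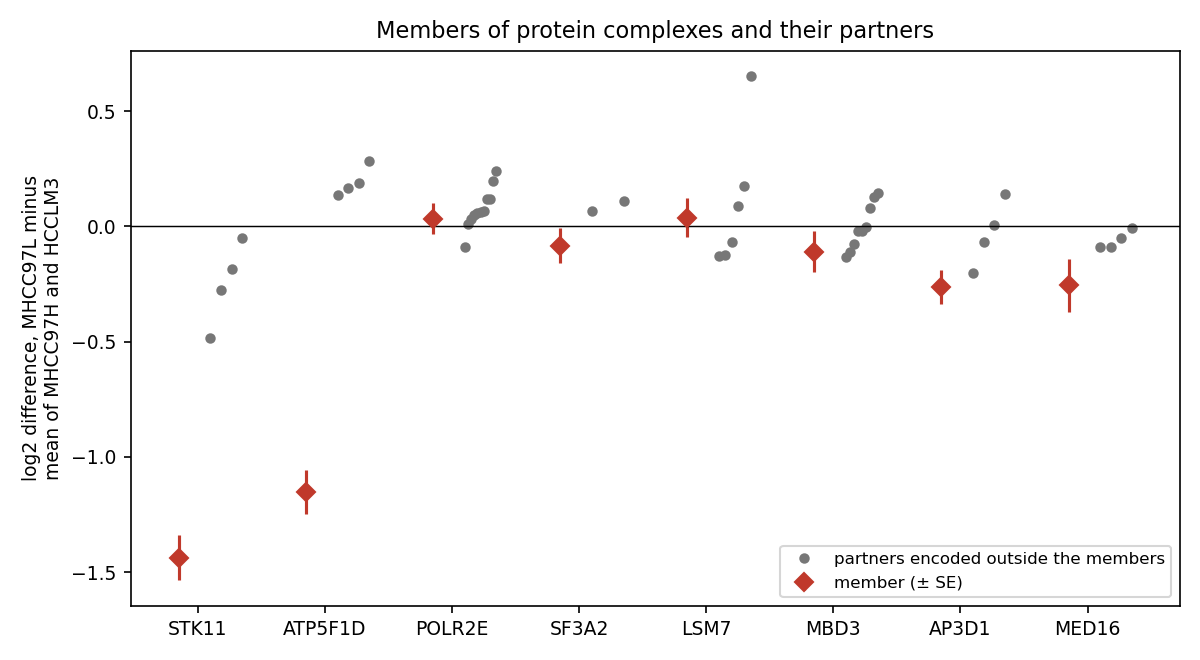
Fitted log2 difference of MHCC97L minus the mean of MHCC97H and HCCLM3 for members that are subunits of complexes (red, ± SE) and for their partners encoded outside the member list (grey). STK11 and ATP5F1D, at -1.44 and -1.15, lie below each of their 4 partners, and the other members shown lie between -0.26 and 0.04.

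HCCLM3 and MHCC97H were compared to see how the members differ between lines that both lie on the other side of the selecting comparison. Of the 74 tested members, 15 were lower in HCCLM3, beside 14.0% of all tested genes, and 2 were higher, beside 13.3% (edgeR quasi-likelihood, adjusted p below 0.05). The median of the members was -0.13, and over all tested genes it was 0.00. In 5 equal classes of the other tested genes, from low to high exonic GC content, it was 0.033, 0.018, 0.013, -0.011 and -0.039. The highest class holds 65 of the members. Over tested protein-coding genes the window below 3 Mb had -0.134, and the next window, from 3 to 6 Mb, had -0.125. The part of base composition in the counts of lower members was not tested. The count of lower members depends on the libraries: it was 9 without the MHCC97L control library, 8 without the MHCC97L TGF-β1 library, 6 without the MHCC97H TGF-β1 library and 29 without the HCCLM3 control library. The MHCC97L libraries bear mainly on the estimate of spread here, which has 1 residual degree of freedom in place of 2 when either is left out. The members' median was then -0.133 without the control library and -0.125 without the TGF-β1 library of MHCC97L. With 2 libraries per line that differ in treatment, and no statement that they came from separate cultures, p-values measure the spread between these libraries only.

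The 6 neighbours did not stand apart between HCCLM3 and MHCC97H. Their differences, HCCLM3 minus MHCC97H, were 0.08 (SE 0.15) for SBNO2, -0.20 (SE 0.103) for STK11, 0.02 (SE 0.221) for CBARP, -0.36 (SE 0.103) for ATP5F1D, -0.11 (SE 0.099) for MIDN and -0.24 (SE 0.082) for CIRBP. Only ATP5F1D passed, with an adjusted p of 0.0293 by edgeR's quasi-likelihood test, which ranged from 0.000136 to 0.222 over the alternatives tried. Its adjusted p was 0.0697 and 0.0652 without the control or the TGF-β1 library of MHCC97L, 0.222 without the MHCC97H TGF-β1 library and 0.176 without the HCCLM3 TGF-β1 library. STK11 passed without the control library of MHCC97H or of HCCLM3 (adjusted p 0.0455 and 0.023 by the same method), and CIRBP passed with library totals or upper quartiles as scaling (0.043 and 0.0464).

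The member that differed most between these lines was PALM. It had 1.94 CPM after TGF-β1 and 1.22 CPM in the control of HCCLM3, against 14.1 and 6.20 CPM in MHCC97H, and its difference was -2.63 (SE 0.197, adjusted p 1.5e-05, edgeR quasi-likelihood). FAM174C, the gene next to the block, had 41.7 and 38.4 CPM in HCCLM3, against 80.4 and 53.6 CPM in MHCC97H, a difference of -0.72 (SE 0.113). PWWP3A, a chromatin protein gene, had 32.0 and 24.1 CPM in HCCLM3, against 57.5 and 34.8 CPM in MHCC97H, a difference of -0.70 (SE 0.107). For PALM, FAM174C and PWWP3A both HCCLM3 libraries lay below both MHCC97H libraries. TIMM13, a chaperone of the mitochondrial intermembrane space, was at -0.62 (SE 0.087), the phospholipid flippase gene ATP8B3 at -0.55 (SE 0.094) and PLEKHJ1 at -0.51 (SE 0.096). The other members that fell were MBD3, PLPP2, MISP, POLRMT, WDR18, OAZ1, POLR2E and R3HDM4, besides ATP5F1D, at -0.44 to -0.28. MISP, OAZ1 and POLR2E lost their calls without either MHCC97L library (adjusted p 0.055 to 0.11) and without the MHCC97H TGF-β1 library (0.101 to 0.207), where MBD3 had 0.12, all by edgeR. The members that were higher in HCCLM3 were SHC2, at 1.40 (SE 0.285) on 102 and 66 counts in HCCLM3 against 50 and 23 in MHCC97H, and GADD45B, at 0.49 (SE 0.115). SHC2 lost its call without the MHCC97H control library (adjusted p 0.0603), and GADD45B without that library (0.0612) or without the HCCLM3 TGF-β1 library (0.0537, edgeR quasi-likelihood in each case).

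TGF-β1 binds a pair of receptor kinases that phosphorylate SMAD proteins, which then enter the nucleus and change transcription within hours. After 4 h, 20 of the 74 tested members were higher than in control, beside 8.18% of all tested genes, and 0 were lower, beside 6.96% (edgeR quasi-likelihood, adjusted p below 0.05). At an unadjusted p below 0.05, 38 members were higher and 1 lower. DESeq2 called 19 higher and 0 lower, and limma-voom 16 and 0. The median change of the members was 0.21, with 61 of 74 above 0, and the median of all tested genes was 0.00. The count of higher members moved with the lines fitted. Leaving out MHCC97L gave 8, leaving out MHCC97H 10 and leaving out HCCLM3 40, and leaving out either single library gave 8 and 8, 10 and 10, and 38 and 40 for those lines in turn. Library totals as scaling gave 12. Of all calls over the 14176 genes, 54.0% were higher after TGF-β1, a share that was 37.0% with library totals and 44.3% with upper quartiles.

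FSTL3, a secreted relative of follistatin that binds activin, had 293.0, 268.2 and 361.4 CPM after TGF-β1 in MHCC97L, MHCC97H and HCCLM3, against 99.7, 60.1 and 156.9 CPM in the controls. GADD45B, a stress-response gene long known to be induced by TGF-β, had 26.1, 31.5 and 44.9 CPM after TGF-β1, against 11.4, 11.3 and 15.6 CPM in the controls. ARID3A, a DNA-binding transcription factor, had 22.6, 23.8 and 20.9 CPM after TGF-β1, against 9.86, 8.73 and 8.30 CPM in the controls. In each of these genes all 3 treated libraries lay above all 3 controls. The fitted changes were 1.63 (SE 0.226, adjusted p 0.0341) for FSTL3, 1.40 (SE 0.096, adjusted p 3.2e-05) for GADD45B and 1.32 (SE 0.098, adjusted p 5.5e-05) for ARID3A, all by edgeR's quasi-likelihood test. FSTL3 lost its call without MHCC97L (adjusted p 0.109) or without HCCLM3 (0.0929), and its adjusted p ran from 1.38e-07 to 0.213 over all alternatives tried.

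Next came HCN2 at 1.09 (SE 0.21) and PALM at 1.05 (SE 0.149). Between HCCLM3 and MHCC97H, PALM passed and HCN2 did not (adjusted p 0.0976, edgeR quasi-likelihood). HCN2 lost its call for TGF-β1 without MHCC97H (adjusted p 0.276, edgeR quasi-likelihood). PALM had 11.7, 14.1 and 1.94 CPM after TGF-β1 in MHCC97L, MHCC97H and HCCLM3, against 5.44, 6.20 and 1.22 CPM in the controls. Each line had more PALM after TGF-β1, while the libraries of HCCLM3 lay below those of the other lines in both conditions. In HCCLM3 this rests on 40 counts against 23, and the 95% counting interval of the change, -0.11 to 1.472, includes 0. Both named enzymes of ubiquitin transfer rose: CDC34, a ubiquitin-conjugating enzyme, by 0.80 (SE 0.099), and RNF126, a ubiquitin ligase, by 0.66 (SE 0.066). RNF126 had 98.9, 99.4 and 94.7 CPM after TGF-β1, against 63.5, 60.8 and 60.7 CPM in the controls, the most even response among the 8 members that changed most. MISP, which links the actin cortex to the mitotic spindle, rose by 0.70 (SE 0.077). The other members that passed were POLR2E, TIMM13, BSG, OAZ1, ABHD17A, MIDN, MBD3, ATP5F1D, FAM174C, POLRMT, PWWP3A and DIRAS1, at 0.24 to 0.58. Of these, POLR2E, TIMM13, BSG, OAZ1, MBD3 and FAM174C lost their calls without MHCC97L (adjusted p 0.204 to 0.399) or without MHCC97H (0.129 to 0.212, edgeR quasi-likelihood). ABHD17A, POLRMT and DIRAS1, with adjusted p of 0.0445, 0.00789 and 0.00556 in the main edgeR fit, were not followed one by one without a line. Only 8 members in all passed without MHCC97L.

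**Figure D4:**
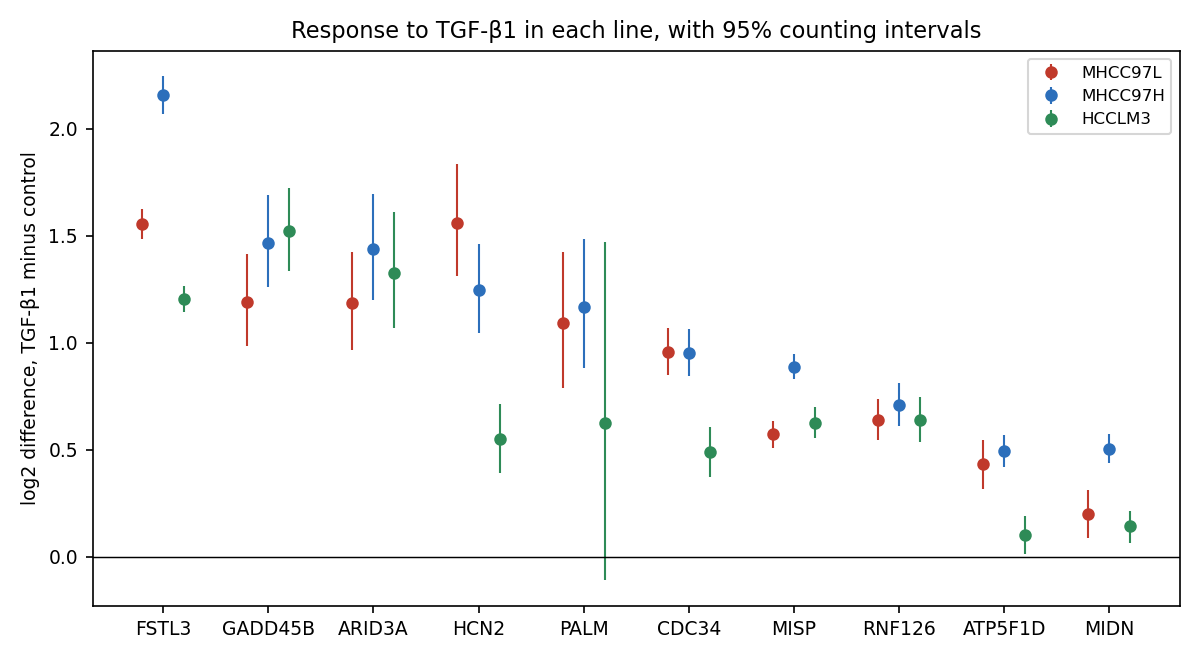
Log2 difference of TGF-β1 minus control in each line for the 8 named members that changed most and for ATP5F1D and MIDN. Bars are 95% exact intervals that cover counting error only. FSTL3 runs from 1.20 in HCCLM3 to 2.16 in MHCC97H, and RNF126 from 0.64 to 0.71.

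Within the block, ATP5F1D and MIDN rose with TGF-β1 and the others did not pass. ATP5F1D changed by 0.34 (SE 0.085, adjusted p 0.0269) and MIDN by 0.29 (SE 0.082, adjusted p 0.0447, edgeR quasi-likelihood in both). ATP5F1D lost its call without MHCC97L (adjusted p 0.279), without MHCC97H (0.142) or with library totals (0.0591), and MIDN without MHCC97L (0.226), without MHCC97H (0.263), with library totals (0.0993) or with upper quartiles (0.061). STK11 changed by 0.17 (SE 0.087), CIRBP by -0.02 (SE 0.068), SBNO2 by -0.29 (SE 0.126) and CBARP by -0.36 (SE 0.19). By line, in the order MHCC97L, MHCC97H and HCCLM3, STK11 differed by 0.12, 0.39 and 0.00, and SBNO2 by -0.39, 0.08 and -0.58. STK11 passed without HCCLM3 (adjusted p 0.0183) and SBNO2, lower after TGF-β1, without MHCC97H (0.0244). In both conditions the level of each of the 6 genes in MHCC97L stayed below every library of the other lines.

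By role, 4 of 6 tested members in protein turnover rose with TGF-β1 (CDC34, RNF126, MIDN and OAZ1, the antizyme that limits polyamine synthesis), with a median of 0.28. Of the 12 tested members in transcription and RNA, POLRMT and POLR2E passed and the median was 0.21. Of the 12 chromatin proteins and transcription factors, ARID3A, PWWP3A and MBD3 passed and the median was -0.07. Of the 12 members in membrane and traffic, BSG, a chaperone of lactate transporters, and the depalmitoylase gene ABHD17A passed, with a median of 0.11. Among 8 tested kinases and signalling genes the small GTPase gene DIRAS1 was the 1 that passed, and the median was 0.21. In the smaller groups, 2 of 3 TGF-β-linked and stress genes passed (FSTL3 and GADD45B, not AMH), 2 of 4 in mitochondria and redox (ATP5F1D and TIMM13), 2 of 4 in lamina and cytoskeleton (PALM and MISP) and 0 of 2 in granule proteins by edgeR. All these calls come from the fit with every library, and 8 members in all passed without MHCC97L. These groups were written with earlier results of these libraries known, and their counts are read beside the 8.18% of all tested genes that rose.

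The change with TGF-β1 moved with base composition. The exons of the members have a median GC content of 62.9%, against 48.4% in the other tested genes, and 65 of the 74 fall in the GC class that holds the highest of 5 equal parts of the other genes. In those 5 classes, from low to high GC, the median change of the other genes was -0.08, -0.08, -0.04, 0.05 and 0.14. For the highest class the medians of MHCC97L, MHCC97H and HCCLM3 were 0.14, 0.26 and 0.02, and those of the members were 0.19, 0.35 and 0.08 in the same order of lines. Across the genome, 193 windows of 3 Mb held at least 20 tested protein-coding genes, and windows with fewer were not ranked. Among the 193, the window at the 19p end had the second highest median change, 0.22, where the highest was 0.25. Its neighbours from 3 to 6 Mb and from 6 to 9 Mb had 0.15 and 0.14. The part of base composition in the counts of members that rose was not tested. The difference between MHCC97L and the other lines had medians of -0.01, 0.00, 0.02, 0.01 and 0.00 over the same classes of other genes. After centring within 20 GC classes the median of the 6 neighbours was -1.30. For these 6 genes the part of base composition was not tested.

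**Figure D5:**
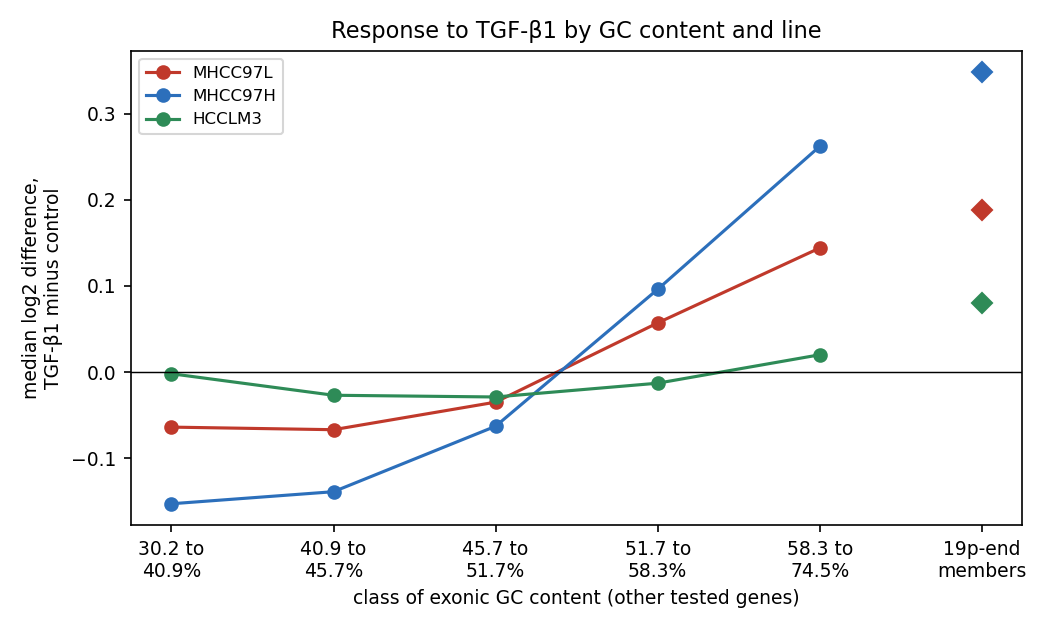
Median log2 difference of TGF-β1 minus control in each line for other tested genes in 5 classes of exonic GC content (circles) and for the 74 tested members of the 19p end (diamonds). The medians climb with GC content most in MHCC97H, to 0.26, and least in HCCLM3, to 0.02, and the diamonds keep that order of lines.

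A short SMAD-binding letter string, CAGAC or its reverse complement GTCTG, was searched in the same promoter windows. It stood in 6 of the 16 members that rose with TGF-β1 and have a listed promoter (37.5%), in 17 of the 47 tested members that were not called (36.2%) and in 45.3% of all listed promoters. The windows of FSTL3 and GADD45B held no match, which says only that these letters are not in those 300 bases.

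The 21 members that were not tested had at most 28 counts in any library. Of these, 4 were at 0 in every library (OR4F17, THEG, ELANE and 1 gene without a symbol), and 14 had 10 or fewer counts in each. They include the neutrophil granule genes ELANE, PRTN3 and PRSS57, with at most 2 counts, and the lymphocyte granzyme gene GZMM, with at most 10. AZU1, their neighbour in the granule cluster, was tested at 0.39 to 0.63 CPM.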

How the data were processed

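RNA of 6 libraries, 1 per cell line and condition, was extracted with Trizol and sequenced on Illumina machines, per the labels' protocols. The authors deposited expected counts per Ensembl gene ID, taken as such from the values: 63.6% to 64.6% of values in a library were whole and the rest had decimals. Per the submitters' processing notes the tools were Cuffdiff 1.3.0, Cufflinks 2.2.1 and TopHat2 2.1.1 and the build hg38, with no role stated, and the counting tool was not given in the sources used here.

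IDs were joined to GENCODE 29 on GRCh38: 19574 of 22091 matched, and the other 2517 carried 2.01% of all counts and were fitted too. Of the 97 annotated genes that meet the rule, AC005943.1 and AC005258.1 had no row in the count files. Counts were rounded, which moved a total by at most 134.1, kept by filterByExpr on treatment (14176 genes) and scaled by TMM (factors 0.972 to 1.029). One model with line and treatment, leaving 2 residual degrees of freedom, was fitted in edgeR 4.0.16 (R 4.3.3) with robust quasi-likelihood and tested with Benjamini-Hochberg adjustment over all genes. DESeq2 1.42.0 and limma 3.58.1 were alternatives, and the fit was tested on simulated data. Within a line and condition there is 1 library, so differences there are log2 CPM with a prior count of 2 and no test. Library totals were 23085194, 23242862 and 21257080 after TGF-β1 in MHCC97L, MHCC97H and HCCLM3 and 22854982, 20407269 and 18485041 in the controls. Intervals are 95% exact binomial and cover counting error only.

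The line term pairs the libraries, as the labels give each line with and without ligand. Deviations of a line's 2 libraries from their condition means had a correlation across genes of 0.587, 0.456 and 0.728 for MHCC97L, MHCC97H and HCCLM3. The members and lists were chosen with earlier results of these data known. Named are STK11, MIDN and ATP5F1D, the 10 members with the highest mean CPM, the 5 largest and 5 smallest MHCC97L differences, up to 8 called members per tested comparison, the 3 genes on each side of the 3 Mb limit, and examples of the role groups. The 6 neighbours were added after their values were seen, as were a lower and a higher fold threshold. Promoters came from RefSeq on GRCh38.p14, and 63 of the 74 tested members had one.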

Additional observations from a re-analysis of the deposited data

Results flagged for a closer look

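AP3D1, which encodes the delta subunit of the AP-3 adaptor that sorts cargo to lysosomes, was 0.146 higher after TGF-β1 in MHCC97H (6188 counts against 5043 in control) and 0.095 lower in HCCLM3 (4664 against 4542 in a shallower control), both on the log2 CPM scale. The responses point in opposite directions and differ by 0.24. Each 95% counting interval lies wholly on its own side of no change (0.092 to 0.2 in MHCC97H, -0.154 to -0.036 in HCCLM3). AP3D1 was not alone in this. MIER2 (0.524 in MHCC97H and -0.193 in HCCLM3), MED16 (0.447 and -0.139) and ABCA7 (0.333 and -0.189) also rose and fell beyond counting error. Their responses lay further apart than those of AP3D1. With 1 library per line and condition the difference between the lines was not tested. In MHCC97L the response of AP3D1 was 0.009.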

How the results depend on the processing

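The 6 neighbours were picked for low values in MHCC97L, so the sign of their median difference from the other lines was set in advance. The alternatives run show only how the size of this median moved. It was -1.317 with library totals, -1.152 over its 3 members with whole counts and over its 3 members with no overlapping gene, -1.321 in the TGF-β1 libraries, -1.415 against MHCC97H alone, -1.245 against HCCLM3 alone, and -1.39 to -1.224 with 1 library left out. Members at least 1.5-fold lower numbered 8, against 4 with whole counts only and 3 with no overlapping gene, where fewer genes are tested, 7 at 2-fold, 12 at the lower threshold tried, 12 with no count filter, 11 against HCCLM3 alone, 9 against MHCC97H alone, 10 in the TGF-β1 libraries and 9 to 12 with 1 library left out. Between HCCLM3 and MHCC97H, the 2 higher members became 4 with DESeq2 or without the robust option, 1 with no overlapping gene and 1 to 3 with 1 library left out. The 15 lower members became 9 with whole counts only or with no overlapping gene, and 6 to 29 with 1 library left out. The 20 members higher after TGF-β1 became 12 with library totals, 11 with no overlapping gene, and 8, 10 and 40 without MHCC97L, MHCC97H and HCCLM3. With 1 library left out the count ran from 8 to 40. Without MHCC97H 1 member, SBNO2, was lower, and 0 to 1 were with 1 library left out. Dropping the line term, so with no replicate block, left 0 higher members by edgeR, 12 at an unadjusted p below 0.05. The cause of each of these shifts was not tested, apart from the smaller gene sets. With 1 library per line and condition, no value here separates cultures of a line.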

Other observations

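Among the 12 tested kinases and AMPK subunits downstream of STK11, 3 passed for TGF-β1 against control in edgeR's quasi-likelihood test. NUAK2 and PRKAA2 were higher, beside 8.18% of all tested genes, and SIK3 was lower, beside 6.96%. These calls come from the fit with every library and were not followed without a line. NUAK2, a kinase of the AMPK family, had 12.3, 13.9 and 18.6 CPM after TGF-β1 in MHCC97L, MHCC97H and HCCLM3, against 8.33, 5.18 and 8.75 CPM in the controls, a change of 1.01 with an adjusted p of 0.00427. PRKAA2, a catalytic subunit of AMPK, changed by 0.37 (adjusted p 0.0345) and SIK3 by -0.39 (adjusted p 0.0112), both by edgeR. NUAK2 was higher after TGF-β1 in each of the 3 lines.

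Beside the block at STK11, the 6 other runs of 3 genes lower in both MHCC97L libraries held zinc finger genes in 4 cases, all on chromosome 19. They were ACP5, ZNF823 and ZNF441; ZNF493, ZNF429 and ZNF100; ZNF850, ZNF790 and ZNF345; and ZNF577, ZNF649 and ZNF613. Their median differences were -1.13, -1.65, -0.71 and -1.43. Zinc finger genes of these clusters are similar in sequence, so counts may be divided among them, which was not tested. Genes of 3 of these runs also lay in runs that were higher in HCCLM3 than in the other lines: ACP5, ZNF823 and ZNF441 at a median of 1.37, ZNF493 and ZNF429 with ZNF738 at 0.98, and ZNF577, ZNF649 and ZNF613 with ZNF350 at 1.23.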
